A study of Homo sapiens with 2 samples.

Results

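The annexins described here are 8 of the 25702 genes listed in these files: ANXA1, ANXA2, ANXA3, ANXA4, ANXA5, ANXA6, ANXA7 and ANXA11. They were found by their symbol in the authors' deposited table and joined by Entrez gene ID to both count files, and all 8 were matched. The cells were K562, an established human erythroid leukemia line that carries the BCR-ABL1 fusion, grown in RPMI medium with serum and not synchronised. One library came from cells given cabozantinib (XL184), a small-molecule inhibitor of MET, AXL, VEGF receptors and other kinases, at 1 µM for 48 h. The other came from cells given the solvent, DMSO, for the same 48 h. With 1 library in each group, differences have no replicate check, the treatment could not be tested, and intervals cover counting error only. The family was selected on the ratios of these same counts, which were known when it was proposed, so the ratios are given as a description.

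Annexins are cytosolic proteins that bind acidic phospholipids, such as phosphatidylserine, when calcium rises. Each has a conserved core of calcium-binding repeats and a tail at the N-terminus that differs between members and holds the binding sites for partners, among them proteins of the S100 family. They act in membrane repair, vesicle traffic and inflammation, and ANXA1 and ANXA3 are known as abundant proteins of myeloid cells.

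The cabozantinib library held 25505289 counts and the DMSO library 25025243. The erythroid identity of the line was visible in both, with all 9 listed erythroid markers measured, and their summed level was 37283 CPM with cabozantinib and 13369 CPM in DMSO (CPM, counts for each 1e6 counts after scaling). Genes that reached 1 CPM in either library, 12536 in all, were taken as measured. Among 8 granulocyte and monocyte markers, 2 were measured, and the list summed to 9.77 CPM with cabozantinib and 19.4 CPM in DMSO, with MPO and ELANE at 0 counts in both libraries.

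ANXA1 was by far the most abundant annexin in DMSO and was 4.22-fold lower with cabozantinib, and ANXA3, a scarce member, was lower to a like degree. The other 6 differed by less than 1.5-fold. Of these, ANXA2 and ANXA4 had slightly more counts for their library with cabozantinib, and ANXA5, ANXA6, ANXA7 and ANXA11 slightly fewer. A gene was called lower or higher at 1.5-fold (a log2 size of 0.585) when the exact 95% interval of the ratio of its counts also left out no change. By that rule 2 of the 8 annexins were lower and 0 higher, beside 12.3% of all measured genes lower and 8.15% higher. At 2-fold the counts were again 2 lower and 0 higher, beside 5.76% and 2.71% of measured genes. All 8 annexins passed the filter on low values. Their median log2 ratio, cabozantinib over DMSO, was -0.38, and that of all measured genes was 0.01.

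**Figure D1:**
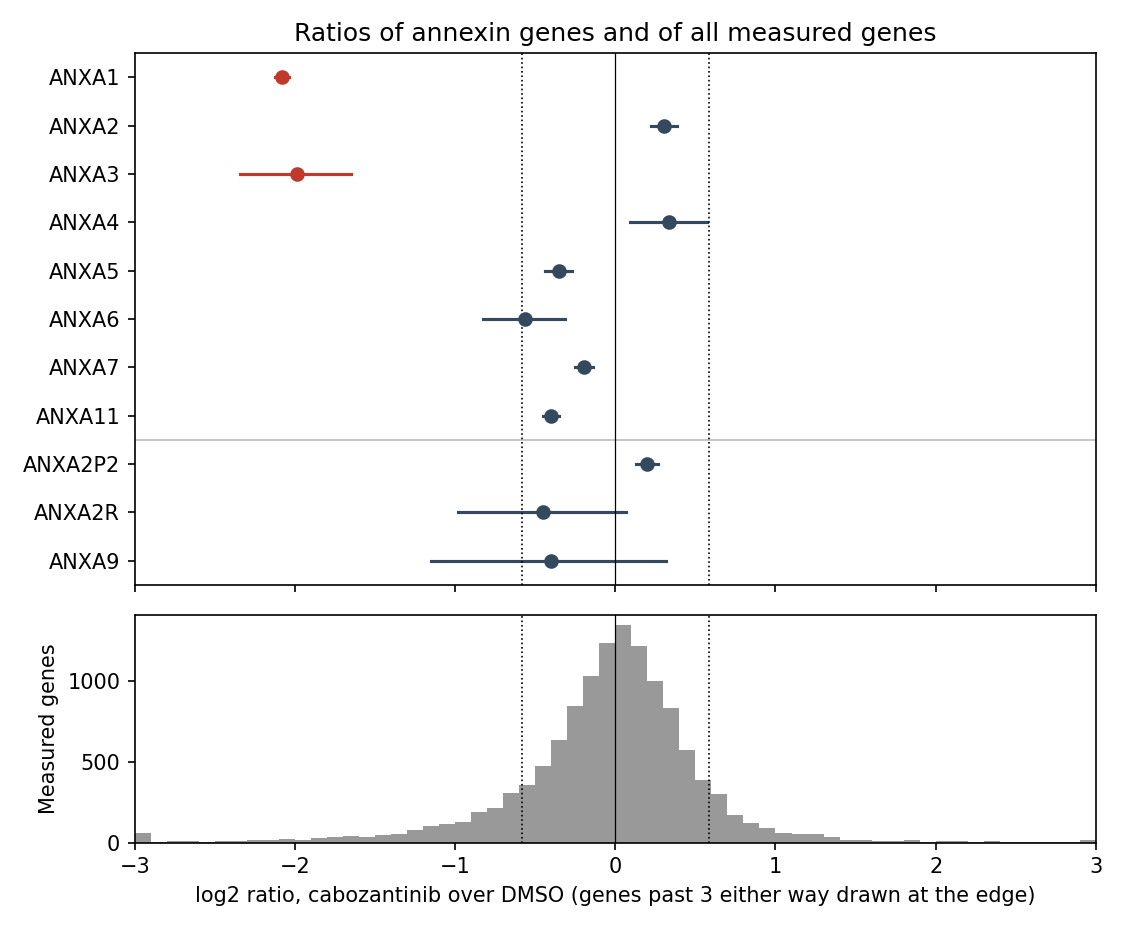
Upper panel: log2 ratio, cabozantinib over DMSO, of the 8 annexins and, below the grey line, of ANXA2P2, ANXA2R and ANXA9, with exact 95% counting intervals as bars. Genes past 1.5-fold (dotted lines) are red. Lower panel: the number of the 12536 measured genes at each log2 ratio. ANXA1 and ANXA3 sit near -2, far from the bulk of genes, and the other annexins lie between the dotted lines.

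ANXA1 (Entrez 301) encodes annexin A1, a protein induced by glucocorticoids that limits inflammation through formyl peptide receptors and was among the first described substrates of the EGF receptor kinase. The gene lies on hg19 chromosome 9, 75766781 to 75785307, plus strand, with 13 exons and a summed exon length of 1399 bases in the deposited annotation. It had 5155 counts with cabozantinib and 22644 in DMSO, or 208 and 879 CPM. The cabozantinib library was the low one, 4.22-fold lower with a counting interval of 4.10 to 4.35. Of the measured genes, 1.18% had a lower ratio than ANXA1. Per length, its level was 277 TPM with cabozantinib and 1318 TPM in DMSO (TPM, transcripts per 1e6, from counts and exon lengths), which put it at rank 461 of all genes with cabozantinib and at rank 84 in DMSO. TPM were not scaled between the libraries as CPM were, so they compare genes within a library, and fold differences are not taken from them. Per length ANXA1 had the highest TPM of the 8 in both libraries, whereas in CPM with cabozantinib it was below ANXA7 (212 CPM) and ANXA11 (215 CPM).

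ANXA3 (Entrez 306, chromosome 4, 79472742 to 79531605, plus strand, 13 exons) encodes annexin A3, found at the granules of neutrophils. It had 88 counts with cabozantinib and 364 in DMSO, or 3.55 and 14.1 CPM. The cabozantinib library was again the low one, 3.96-fold lower, and the smaller counts left a wider interval of 3.14 to 5.08 that holds the whole interval of ANXA1. Levels per length were 4.08 TPM with cabozantinib and 18.3 TPM in DMSO. In the granulocyte and monocyte list 1 of 2 measured markers was lower, LYZ, at 218 counts with cabozantinib and 430 in DMSO. The other, CEBPA, had 13 counts with cabozantinib and 27 in DMSO. Its log2 ratio was -0.97 (-2.08 to 0.01), and it was not called. Of the 9 erythroid markers 8 (88.9%) were higher, beside 12.3% of all measured genes lower and 8.15% higher. The lymphocyte marker CD3D was lower too, at 59 counts with cabozantinib and 247 in DMSO, and MS4A1 was at 0 in both libraries. The part of these changes in the annexin ratios was not tested, and in bulk RNA fewer cells that express a gene cannot be told apart from less RNA per cell.

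The promoters of these genes are shown because ANXA1 and ANXA3 were lower together, with that of ANXA2, which was not lower, for contrast. Each line gives the 250 bases before the annotated start, 5′ to 3′ on the strand of the gene, from RefSeq on GRCh38.p14, a later build than the hg19 of the count files. The RefSeq table held a promoter for all 8 annexins. Capitals mark matches, on either strand, to 9 short motifs. The core promoter motifs searched were the TATA box as TATAAA, the CCAAT box by its own letters, and the GC box as GGGCGG. The GATA factor motif was searched in an A form spelled AGATAA and in a T form spelled TGATAA, and the PU.1 core was spelled AGGAAGT. The STAT motif was spelled TTCNNNGAA with any base at N, the AP-1 motif was spelled TGANTCA, and the E-box bound by MYC was spelled CACGTG. The windows are chr9:73151615-73151864 (plus strand), chr4:78551520-78551769 (plus strand) and chr15:60397987-60398236 (minus strand).
ANXA1: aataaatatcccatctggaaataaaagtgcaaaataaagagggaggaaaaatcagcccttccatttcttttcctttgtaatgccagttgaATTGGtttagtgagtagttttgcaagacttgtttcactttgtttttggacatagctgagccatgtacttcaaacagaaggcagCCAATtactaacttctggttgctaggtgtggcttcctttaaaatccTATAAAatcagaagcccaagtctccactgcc
ANXA3: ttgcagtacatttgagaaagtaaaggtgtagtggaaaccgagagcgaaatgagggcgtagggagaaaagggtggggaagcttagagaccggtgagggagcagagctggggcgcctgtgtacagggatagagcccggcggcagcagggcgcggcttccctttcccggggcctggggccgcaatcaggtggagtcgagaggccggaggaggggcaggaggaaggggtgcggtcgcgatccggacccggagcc
ANXA2: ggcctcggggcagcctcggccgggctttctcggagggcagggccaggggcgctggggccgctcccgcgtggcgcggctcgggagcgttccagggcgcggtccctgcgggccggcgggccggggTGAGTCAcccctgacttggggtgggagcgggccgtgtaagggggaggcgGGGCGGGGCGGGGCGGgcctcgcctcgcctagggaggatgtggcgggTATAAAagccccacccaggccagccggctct

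The ANXA1 and ANXA3 windows differed in base composition. That of ANXA1 was 38.4% G and C with 0 CG dinucleotides, and 10.1% of the 35116 promoters in the RefSeq table had a lower G and C content. That of ANXA3 was 64.0% G and C with 18 CG dinucleotides, and that of ANXA2 78.0% with 28, beside a median of 58.0% and 11 over all promoters. Across all 12 annotated promoters of the 8 genes, ANXA1 alone had 0 CG dinucleotides, and the next lowest was an ANXA11 start with 5. In the ANXA1 window TATAAA began 31 bases before the start (at -31) and CCAAT matched at -77 on the plus strand and at -160 on the minus strand. The ANXA2 window also held TATAAA at -31, with 3 GC boxes that overlap by a base each at -78, -73 and -68 and 1 AP-1 match at -127, whose letters match on both strands. The ANXA3 window held no match to any of the 9 motifs. Of all promoters, 10.7% held TATAAA in this window, 32.0% CCAAT, 42.6% the GC box and 6.57% the AP-1 motif. The GATA, PU.1 and STAT motifs matched in none of the ANXA1, ANXA2 and ANXA3 windows. Over all promoters the A form of the GATA motif was held by 9.17%, the T form by 6.66%, the PU.1 core by 7.01%, the STAT motif by 6.57% and the E-box by 6.34%. A match here describes letters only.

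ANXA2 (Entrez 302, chromosome 15, 60639350 to 60690185, minus strand, 15 exons) encodes annexin A2, which pairs with S100A10 at the plasma membrane and binds plasminogen and its activator there. It had 2759 counts with cabozantinib and 2326 in DMSO, a log2 ratio of 0.30 (0.22 to 0.38), within 1.5-fold. Its value is uncertain because a processed copy, ANXA2P2 (Entrez 304, chromosome 9, 33624223 to 33625532, 1 exon), drew more counts than the gene itself, 3711 with cabozantinib and 3364 in DMSO. The copy took 57.4% of their joint counts with cabozantinib (exact 95% interval 56.1% to 58.6%) and 59.1% in DMSO (57.8% to 60.4%). In GENCODE transcripts, 575 of the 971 distinct 50-base windows of ANXA2P2 (59.2%) occur unchanged in ANXA2, so reads from one can be counted at the other; how the authors counted reads that align to several places is not stated in the labels or headers. The log2 ratio of ANXA2P2 was 0.20 (0.13 to 0.27), and ANXA2 summed with its 3 counted copies gave 0.24 (0.19 to 0.29). The copies ANXA2P1 (4 counts with cabozantinib, 5 in DMSO) and ANXA2P3 (1 with cabozantinib, 5 in DMSO) were nearly uncounted. Pooled over the 9726 distinct windows of all 38 ANXA2 transcripts, those 575 are 5.91%. The counted gene has 1812 exon bases, and the share over these alone, which may be larger, was not computed. For the other 7 annexins, with windows pooled likewise, at most 0.745% (ANXA7) occurred in the transcripts of another gene. For ANXA1 0 of 4604 did.

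ANXA4 (Entrez 307, chromosome 2, 69969127 to 70053596), a member best known from epithelial cells, had 316 counts with cabozantinib and 261 in DMSO, or 12.8 and 10.1 CPM. Its log2 ratio was 0.33 (0.09 to 0.57), the highest of the 8. ANXA5 (Entrez 308, chromosome 4, 122589152 to 122618147) encodes the annexin whose affinity for phosphatidylserine is used to stain dying cells. It had 2022 counts with cabozantinib and 2688 in DMSO, a log2 ratio of -0.35 (-0.44 to -0.27). Both genes stayed within 1.5-fold, and their intervals lie on opposite sides of no change.

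ANXA6 (Entrez 309, chromosome 5, 150480267 to 150537443, 27 exons) encodes a member with a duplicated core, which brings the Ras GTPase-activating protein RASA1 and protein kinase C alpha to membranes. It had 209 counts with cabozantinib and 322 in DMSO, or 8.44 and 12.5 CPM, and was 1.48-fold lower (1.24 to 1.77), just short of 1.5-fold. When the libraries were scaled by total counts its log2 ratio was -0.65 in place of -0.57, which made it the only further annexin called lower, 3 of 8. ANXA7 (Entrez 310, chromosome 10, 75135189 to 75173841) and ANXA11 (Entrez 311, chromosome 10, 81914880 to 81965328) have the long N-terminal tails of the family. ANXA7, first described as synexin for its part in vesicle fusion, had 5262 counts with cabozantinib and 6268 in DMSO, a log2 ratio of -0.20 (-0.25 to -0.14). ANXA11, which tethers RNA granules to lysosomes for transport in neurons, had 5316 counts with cabozantinib and 7302 in DMSO, a log2 ratio of -0.40 (-0.45 to -0.35). ANXA6, ANXA7 and ANXA11 all had fewer counts in the cabozantinib library, with intervals below no change.

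**Figure D2:**
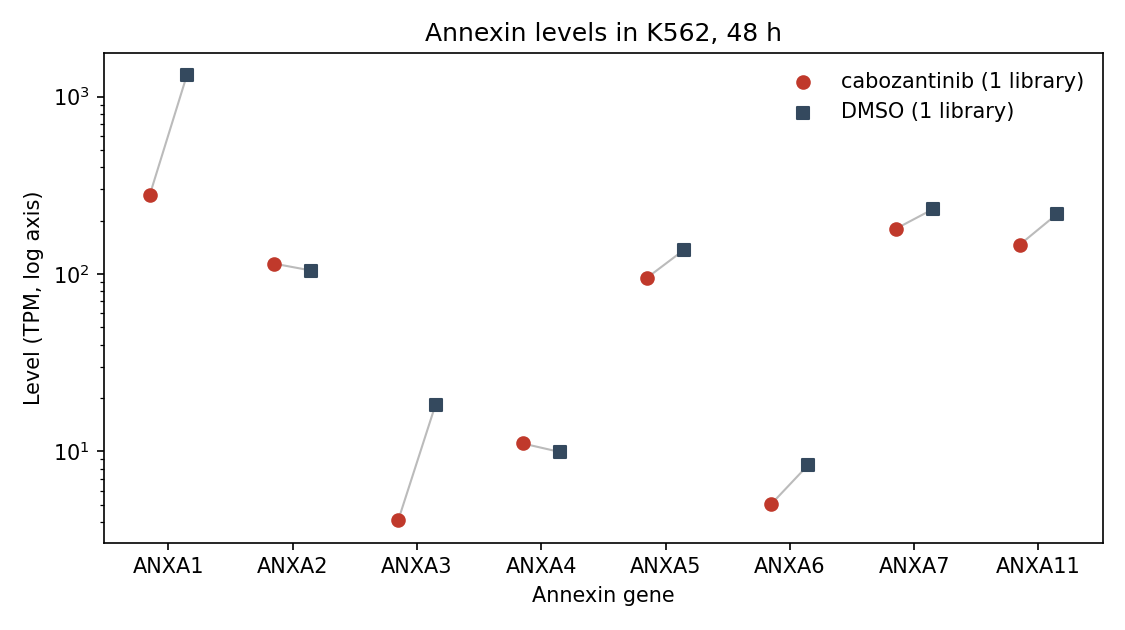
Level of each annexin in TPM on a log axis, with the cabozantinib library as a red circle and the DMSO library as a dark square, joined by a grey line for each gene. TPM were not scaled between the libraries, so the grey lines do not give the fold differences in CPM. ANXA1 stands at 277 TPM with cabozantinib and 1318 TPM in DMSO, and ANXA3, ANXA4 and ANXA6 lie near or below 18.3 TPM in both libraries.

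Ordered by level per length, the family formed an abundant set (ANXA1, ANXA7, ANXA11, ANXA2 and ANXA5) and a scarce one (ANXA4, ANXA6 and ANXA3). With cabozantinib the order was ANXA1 at 277 TPM, ANXA7 at 179, ANXA11 at 146, ANXA2 at 114, ANXA5 at 95, ANXA4 at 11.1, ANXA6 at 5.04 and ANXA3 at 4.08 TPM. In DMSO it was ANXA1 at 1318 TPM, ANXA7 at 232, ANXA11 at 218, ANXA5 at 137, ANXA2 at 105, ANXA3 at 18.3, ANXA4 at 9.92 and ANXA6 at 8.42 TPM. ANXA2 and ANXA5 thus changed places, as ANXA3 did with ANXA4 and ANXA6. ANXA1 was 1.54 times the level of ANXA7 with cabozantinib (counting interval 1.48 to 1.60) and 5.69 times in DMSO (5.53 to 5.85). Neighbours in the order that did not differ beyond counting error were ANXA6 and ANXA3 with cabozantinib (ratio 1.23, 0.957 to 1.60) and ANXA4 and ANXA6 in DMSO (1.18, 0.997 to 1.39). TPM of ANXA2 carry the uncertainty of its copy.

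The 8 genes summed to 21127 counts with cabozantinib and 42175 in DMSO, which is 0.0828% (0.0817% to 0.0840%) and 0.169% (0.167% to 0.170%) of all counts. As scaled levels the sums were 853 CPM with cabozantinib and 1637 CPM in DMSO, 1.92-fold lower (1.89 to 1.95). ANXA1 made up 85.6% of that difference in CPM. Its share of the annexin counts was 24.4% with cabozantinib (23.8% to 25.0%) and 53.7% in DMSO (53.2% to 54.2%). The other 7 genes together had 645 CPM with cabozantinib and 758 CPM in DMSO, 1.18-fold lower (1.15 to 1.20). ANXA7 and ANXA11, the long-tailed pair, were 50.1% of annexin counts with cabozantinib (49.4% to 50.7%) and 32.2% in DMSO (31.7% to 32.6%).

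**Figure D3:**
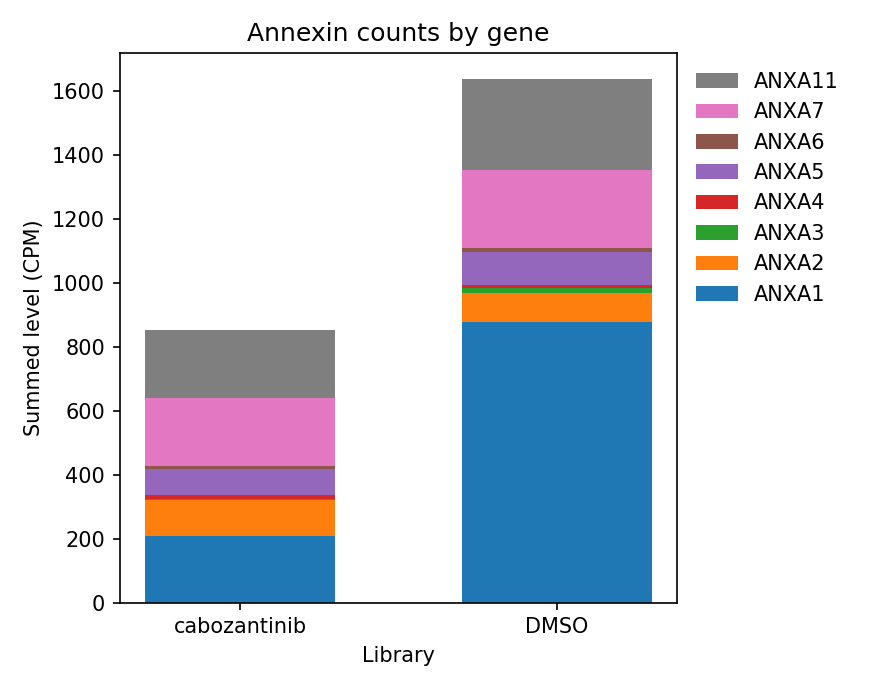
Stacked bars of the scaled level of each annexin in CPM, in the cabozantinib library (left) and the DMSO library (right). The whole bar is 853 CPM with cabozantinib and 1637 CPM in DMSO, and the ANXA1 segment at the base is 208 CPM with cabozantinib and 879 CPM in DMSO.

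In the authors' deposited table the posterior probability of differential expression was 1 for ANXA1 and for ANXA3. For the other 6 annexins the authors' deposited table gave between 0.00354 (ANXA7) and 0.0978 (ANXA6). The plain fold in the authors' deposited table, cabozantinib over DMSO, was 0.235 for ANXA1 and 0.25 for ANXA3. For the others it ranged between 0.671 (ANXA6) and 1.25 (ANXA4). That comparison also rests on 1 library per group, so its probabilities and folds have no replicate check.

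The remaining family genes were scarce or uncounted. ANXA9 had 29 counts with cabozantinib and 40 in DMSO, a log2 ratio of -0.40 (-1.15 to 0.32). ANXA2R, named as a receptor for annexin A2, had 54 counts with cabozantinib and 77 in DMSO, a log2 ratio of -0.45 (-0.98 to 0.07). Both intervals hold no change. ANXA8, ANXA8L1, ANXA10 and ANXA13 were at 0 counts in either library, a count that allows at most 3. That limit may not hold for reads that align to several places, whose handling is not stated. Sequence shared between ANXA8 and ANXA8L1 was not measured, so their 0 counts do not show absence. The name ANXA8L2 led to the same gene ID as ANXA8L1.

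No gene of the deposited annotation overlapped any of the 8 annexins. The nearest measured genes on each side numbered 16, of which 3 were lower and 1 higher, a share near the 12.3% lower and 8.15% higher of all measured genes. ALDH1A1, a retinaldehyde dehydrogenase gene that is the nearest to ANXA1 at 199 kb and on the opposite strand, had 227 counts with cabozantinib and 530 in DMSO, 2.24-fold lower (1.92 to 2.63). On the far side C9orf40, at 1776 kb, had a log2 ratio of 0.09. The neighbours of ANXA3, MRPL1 at 599 kb and BMP2K at 166 kb, had log2 ratios of 0.09 and -0.13. AAK1, a kinase of clathrin-mediated endocytosis 98.2 kb from ANXA4, was 2.94-fold lower (2.60 to 3.33), although ANXA4 itself was not. Beside ANXA7, CFAP70 was 5.77-fold higher (2.40 to 20.6) on 30 counts with cabozantinib and 5 in DMSO, and MSS51 was 1.60-fold lower (1.04 to 2.54) on 34 counts with cabozantinib and 57 in DMSO. The 12 that passed neither way had log2 ratios of -0.44 to 0.37; beyond those named they were BNIP2 and ICE2 at ANXA2, GMCL1 at ANXA4, MAD2L1 and EXOSC9 at ANXA5, TNIP1 and CCDC69 at ANXA6, and TMEM254 and PRXL2A at ANXA11.

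Genes that work with annexins were followed in 8 lists, which hold 67 measured genes with the other family genes included. Of these, 9 (13.4%) were lower and 5 (7.46%) higher, near the 12.3% and 8.15% of all measured genes, and their median log2 ratio was 0.03. Among measured direct partners, S100A11, which binds annexin A1, was lower, and S100A6, SRI, PDCD6 and RASA1 were called neither lower nor higher. The 9 lower genes also included PLAU. Scaled by total counts, 2 were higher in place of 5, since S100A4, HRAS and G3BP1 were then short of 1.5-fold. S100A4 was also short of it with a pseudocount of 5.

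Of 11 measured S100 and penta-EF-hand genes, calcium sensors that include binders of annexin tails, 3 (27.3%) were lower and 1 (9.09%) higher. Of all measured genes 12.3% were lower and 8.15% higher, and the list median log2 ratio was -0.00. With a filter of 5 CPM, 2 of the list were lower and 0 higher. S100A11, whose protein binds the tail of annexin A1, had 934 counts with cabozantinib and 3104 in DMSO, or 37.7 and 120 CPM, 3.19-fold lower (2.97 to 3.44). S100P was 8.84-fold lower (6.33 to 13), at 1.45 CPM with cabozantinib and 13 CPM in DMSO, and S100A16, at 6 counts with cabozantinib and 32 in DMSO, was 4.81-fold lower (2.11 to 15). S100A4 was 1.52-fold higher (1.07 to 2.18) on 82 counts with cabozantinib and 56 in DMSO. S100A10, the partner of annexin A2, had 10 counts with cabozantinib and 14 in DMSO, below 1 CPM in both. S100A6, a partner of several annexins, had a log2 ratio of 0.04. Sorcin (SRI), which binds annexin A7, had one of 0.04, and ALG-2 (PDCD6), which binds annexins A7 and A11, one of -0.00.

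The list of annexin A1 receptors, eicosanoid enzymes and glucocorticoid response had 8 measured genes, with its median at 0.16. Of these, 1 (12.5%) was lower and 2 (25%) higher, beside 12.3% and 8.15% of all measured genes. With a filter of 5 CPM, 0 were lower and 2 higher. The receptor genes FPR1 (0 counts with cabozantinib, 1 in DMSO) and FPR2 (0 in both) were at the limit of detection, and FPR3 had 19 counts with cabozantinib and 1 in DMSO, below 1 CPM in both. NR3C1, the glucocorticoid receptor, had a log2 ratio of 0.03. TSC22D3, which encodes the glucocorticoid-induced leucine zipper, was 4.34-fold lower (2.64 to 7.84) on 18 counts with cabozantinib and 83 in DMSO. FKBP5, another glucocorticoid-responsive gene, had a log2 ratio of 0.11, and DUSP1, a MAP kinase phosphatase also induced by many other stimuli, was 2.17-fold higher (1.88 to 2.50). PTGS1, the constitutive cyclooxygenase, was 1.90-fold higher (1.73 to 2.10), at 46.9 CPM with cabozantinib and 24.6 CPM in DMSO.

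The plasminogen activation list had 6 measured genes, with its median at -0.43. Of these, 2 (33.3%) were lower and 0 higher, beside 12.3% and 8.15% of all measured genes. With a filter of 5 CPM, 1 was lower and 0 higher. PLAU, the activator urokinase, was 8.34-fold lower (5.41 to 14.1) on 21 counts with cabozantinib and 186 in DMSO. PLAT, the tissue activator that annexin A2 binds, was 2.42-fold lower (1.30 to 4.96) on 14 counts with cabozantinib and 36 in DMSO, and the urokinase receptor gene PLAUR had a log2 ratio of -0.49. Plasminogen itself, PLG, had 0 counts in both libraries.

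Of 15 measured plasma membrane repair genes 1 (6.67%) was lower and 0 higher (median 0.07), beside 12.3% and 8.15% of all measured genes. That gene, EHD2, an ATPase of caveolae, was 1.68-fold lower (1.55 to 1.82), while dysferlin (DYSF) had a log2 ratio of 0.08 and ALIX (PDCD6IP) one of 0.03. Of 11 measured genes that make, flip or scramble phosphatidylserine, the lipid annexin A5 binds, 1 (9.09%) was lower and 0 higher (median -0.05). PLSCR1, a phospholipid scramblase, was 1.82-fold lower (1.69 to 1.96), at 42.1 CPM with cabozantinib and 76.6 CPM in DMSO, and ANO6, the calcium-activated scramblase, had a log2 ratio of -0.41.

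Of 12 measured partners of annexins A6, A7 and A11 (median 0.10), 0 were lower and 2 (16.7%) higher. Shares of all measured genes were 12.3% lower and 8.15% higher. The 2 partners were HRAS, 1.55-fold higher (1.36 to 1.76), and the stress granule gene G3BP1, 1.57-fold higher (1.51 to 1.64). RASA1 had a log2 ratio of -0.37, and the lysosomal LAMP1 one of 0.43. Of 5 measured copines, another family of calcium-dependent phospholipid-binding proteins, 1 (20%) was lower and 0 higher, with the median at 0.04. It was CPNE8, at 3.88 CPM with cabozantinib and 7.02 CPM in DMSO, 1.81-fold lower (1.41 to 2.35).

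**Figure D4:**
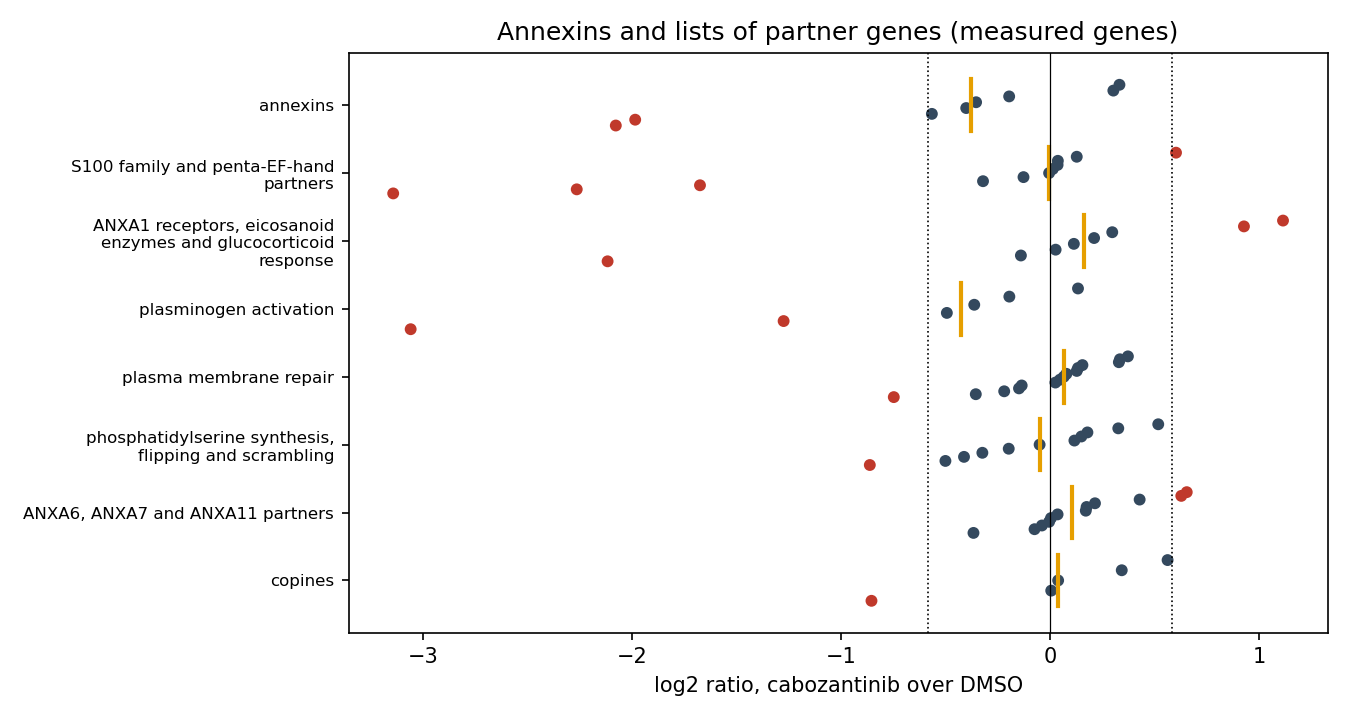
Log2 ratio, cabozantinib over DMSO, of each measured gene in the annexin family and in 7 lists of partner genes, with 1 row for each list. Orange bars are list medians, dotted lines mark 1.5-fold and red points are genes called lower or higher. Most partner genes lie between the dotted lines, and S100P and PLAU lie furthest to the left, past -3.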

How the data were processed

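RNA was measured by sequencing in 1 library of cabozantinib-treated K562 and 1 of DMSO-treated K562, grouped by their treatment label. The deposited counts are whole numbers per Entrez gene. Rsubread was the aligner and hg19 the genome, per the file headers, and hg19 and GRCh37 stand in the submitters' processing notes. Neither the strand setting nor the handling of multi-mapping reads is stated there. The authors' deposited table holds posterior probabilities, a score between 0 and 1, and fold ratios from an unnamed tool. Another 4 columns of values per library in it carry no sample label and were not used. Gene lengths are those the authors deposited. One marker gene is not reported here.

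Scaling used TMM (edgeR 4.0.16, R 4.3.3). Log2 ratios used counts plus a pseudocount of 0.5, and intervals are exact Clopper-Pearson 95% intervals of the ratio of both counts. At 25025243 to 25505289 counts per library, counting precision is limited by each gene's own count, and variation between cultures or preparations was not measured. With 1 library per group no p-value was computed. The method was tested on simulated counts that varied by counting error alone, so that test does not cover variation between cultures or preparations. The members, lists and motifs were chosen with earlier results of these data known. Named were all 8 annexins, the other family genes, fixed binding partners whatever their values, list genes past 1.5-fold and the nearest neighbours; other list genes are examples. FPR3, which differed by more than 1.5-fold but was below 1 CPM in both libraries, was named after its values were seen. So were the example genes within 1.5-fold that were not fixed binding partners. Promoters are from RefSeq (GRCh38.p14) and transcripts from GENCODE 29. Python 3.11.15 was used with numpy 2.4.6, pandas 2.3.3, scipy 1.17.1 and matplotlib 3.10.9. Alternatives were scaling by upper quartile, by DESeq2 1.42.0 size factors or by total counts, a pseudocount of 5, no filter or one of 5 CPM, 2-fold, the deposited folds, ANXA2 with its copies, and shares without globin and mitochondrial genes.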

Additional observations from a re-analysis of the deposited data

How the results depend on the processing

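ANXA1 and ANXA3 were called lower, and no annexin higher, under every scaling, filter, pseudocount, size threshold and deposited fold tried. Log2 ratios ranged from -2.16 to -2.08 for ANXA1 and from -2.07 to -1.93 for ANXA3. Scaling by total counts moved the median log2 ratio of the annexins to -0.46 in place of -0.38, while the median of all measured genes moved by -0.08, and it added ANXA6, for 3 annexins lower. Of all partner genes, 2 were higher under total counts and 1 at 2-fold, in place of 5. Without globin and mitochondrial genes in the total, the annexin share was 0.0908% with cabozantinib and 0.178% in DMSO. No annexin ratio changed sign. No paired analysis was possible because each group held 1 library, and for the same reason no library could be left out. Depth limits ANXA3, ANXA4 and ANXA6, the annexins with the fewest counts, and differences between cultures or preparations cannot be told apart from the treatment.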
